A study of Mus musculus with 8 samples.

Results

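Retinoic acid is made, carried, sensed and destroyed inside the same tissue, and 9 genes of this pathway were followed in mouse molar mesenchyme of control mice and of mice with Cre-driven deletion of *Ezh2*, whose transcript was still read in each library. They encode the retinaldehyde dehydrogenases *Aldh1a1*, *Aldh1a2* and *Aldh1a3*, the cellular binding proteins *Crabp1* and *Crabp2*, the receptor *Rarb*, the retinoic acid hydroxylases *Cyp26a1* and *Cyp26b1* and the retinaldehyde reductase *Dhrs3*. The genes were taken by name, with earlier results of these data known, and all 9 are among the 20926 genes of the expression table. The study asked which genes act downstream of Ezh2, the methyltransferase subunit of Polycomb repressive complex 2, in tooth root furcation. Molar mesenchyme of PN day 3 mice was collected after removal of the epithelium, and RNA was sequenced from 4 Ezh2fl/fl (control) and 4 Osr2KI-Cre;Ezh2fl/fl samples. Both groups carry the floxed *Ezh2* allele, and the Osr2KI-Cre allele, which is active in the dental papilla, dental follicle and alveolar bone and not in tooth epithelium, was present only in the second group. The labels give the strain as C57BL/6, whereas the methods describe a mixed background and mice of either sex. The methods also describe sequencing for 3 pairs of samples, although each group here has 4 libraries.

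Retinol is oxidised to retinaldehyde, mainly by *Rdh10*, and then irreversibly to retinoic acid by the Aldh1a enzymes, while *Dhrs3* returns retinaldehyde to retinol. Retinoic acid is bound in the cytoplasm by the Crabp proteins, acts in the nucleus through retinoic acid receptors paired with retinoid X receptors, and is hydroxylated by the Cyp26 enzymes, which keep tissue levels low. *Rarb*, *Cyp26a1* and *Dhrs3* are well known to be induced by retinoic acid itself, so that the pathway feeds back on its own receptor and on its own clearance. Retinoic acid patterns the pharyngeal arches and the tooth-forming region of vertebrates, and both its excess and its lack disturb craniofacial development.

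*Rarb* was the 1 gene of the 9 that passed adjustment by limma, with a mean in Osr2KI-Cre;Ezh2fl/fl molars 1.63 times that of control. The call held in 17 of 24 other settings. *Aldh1a3* also lay higher in each of the 4 Osr2KI-Cre;Ezh2fl/fl libraries than in any control library, with a ratio of means of 1.68, but missed the threshold after adjustment. Whether *Rarb* and *Aldh1a3* differed in their change was not tested. The other 7 genes overlapped between the groups and did not pass the test in either direction, with *Crabp1* and *Dhrs3* higher at an unadjusted p under 0.05 alone. The summed value of 8 dental follicle and bone markers, such as *Postn* and *Ibsp*, also did not overlap between the groups, at 347 to 603 in control and 805 to 1127 in Osr2KI-Cre;Ezh2fl/fl libraries. Of the 7 tested, 3 were higher at an adjusted p under 0.05 by limma, where 1.56% of all genes tested were. In older Osr2-Cre;Ezh2fl/fl molars the paper did not detect periostin, the *Postn* protein, by staining, a different measure and age. The part of cells with these markers in the *Rarb* and *Aldh1a3* differences was not tested.

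The values are normalized read numbers per gene, without a correction for gene length. A single read was worth an estimated 0.0129 to 0.0190, and the 9 genes had from 50 reads (*Cyp26b1* in control library 1) to 17723 reads (*Cyp26a1* in control library 4) in a library. These read numbers cover counting error only. A fold change is the mean log2(value + 1) of Osr2KI-Cre;Ezh2fl/fl minus that of control, a scale that understates changes of low genes. Testing was by limma on the 14854 genes that reached 1 in 4 or more libraries, with Benjamini-Hochberg adjustment over all of them. All 9 genes passed this filter. Nothing in the labels says how many mice or litters the samples came from, so p-values measure the spread between these samples.

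The libraries were not pure mesenchyme. The dental mesenchyme list of 10 genes (*Msx1*, *Pax9*, *Barx1* and others) was present throughout, with no value under 7.94. Of these 10, 1 was higher at an adjusted p under 0.05 by limma, where 1.56% of all genes tested were, and 0 were lower, where 0.512% were. The 8 epithelial markers, among them *Krt14* and *Krt5*, were present as well, with no value under 66.1. Their sum ranged from 2237 to 4768 in control and from 2030 to 2957 in Osr2KI-Cre;Ezh2fl/fl libraries. The enamel gene *Amelx* ranged from 316 to 16250 and was highest in control libraries 3 and 4 and Osr2KI-Cre;Ezh2fl/fl library 3. Sums of endothelial markers (344 to 392.3 in control and 306 to 335 in Osr2KI-Cre;Ezh2fl/fl libraries), pericyte and smooth muscle markers (339.4 to 419 and 300 to 338.95) and odontoblast markers (9470.4 to 11597 and 7596 to 9463.0) did not overlap between the groups either, with 0 genes of these 3 lists called after adjustment. At an unadjusted p under 0.05 by limma, 3, 1 and 2 of the 6 genes in each list were lower, where 4.87% of all genes tested were. A further 1 pericyte and smooth muscle gene was higher, where 8.27% were. *Col1a1* is in both the odontoblast and the dental mesenchyme list, and a sum mostly reflects its most abundant genes. *Xist* and the Y-linked *Ddx3y* were both above 30 in 4 of the 8 libraries. Control library 2 and Osr2KI-Cre;Ezh2fl/fl library 1 had almost no *Xist* (0.373 and 0.414). Osr2KI-Cre;Ezh2fl/fl libraries 2 and 3 had almost no *Ddx3y* (0.0455 and 0.0424), which was at least 31.2 in each control library. Sex was thus not balanced between the groups. With *Xist* as a covariate, *Rarb* was 0.67 on the log2 scale (adjusted p = 0.0311 from limma) and *Aldh1a3* was 0.76 (adjusted p = 0.122). *Ezh2* had means of 42.9 ± 8.03 in control and 31.1 ± 5.92 in Osr2KI-Cre;Ezh2fl/fl molars (SD, n = 4 each), with no overlap and an adjusted p of 0.235 from limma.

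Across the 9 genes, 1 had an adjusted p under 0.05 and a higher level, against 1.56% of all genes tested, and 0 had an adjusted p under 0.05 and a lower level, against 0.512%. At an unadjusted p under 0.05, 4 of the 9 were higher (*Aldh1a3*, *Crabp1*, *Rarb* and *Dhrs3*), against 8.27% of all genes, and 0 were lower, against 4.87%. The groups did not overlap in 2 of the 9 genes with the Osr2KI-Cre;Ezh2fl/fl libraries higher, where 5.76% of all genes did so, and in 0 with them lower, where 2.77% did. The median log2 fold change was 0.27 over the 9 genes and 0.01 over all genes tested.

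**Figure D1:**
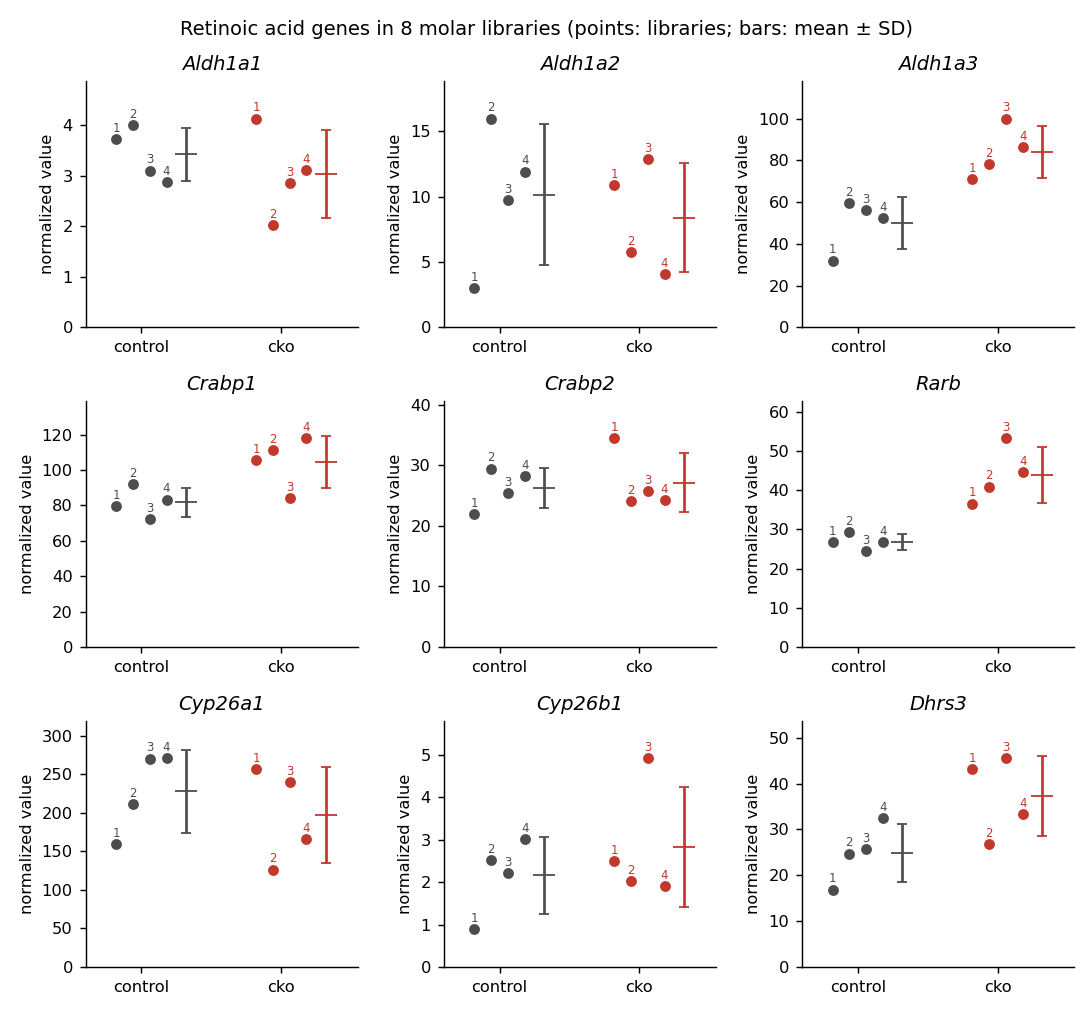
Normalized value (vertical axis, linear and starting at 0) of the 9 genes in each library, with control in grey, Osr2KI-Cre;Ezh2fl/fl (cko) in red, library numbers beside the points, and mean ± SD (n = 4) at the right of each group. Only *Rarb* and *Aldh1a3* have all 4 red points above all 4 grey points.

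*Rarb* encodes retinoic acid receptor beta, a nuclear receptor whose gene is itself a classical retinoic acid target. In mm10 the table places it on chromosome 14, minus strand, from 16430842 to 16575473. *Rarb* read 26.8, 29.3, 24.4 and 26.8 across control libraries 1 to 4, while in the Osr2KI-Cre;Ezh2fl/fl libraries it read 36.5, 40.9, 53.2 and 44.6. No Osr2KI-Cre;Ezh2fl/fl library came down to the control range, and the controls lay within a 1.20-fold range. The means were 26.8 ± 2.00 and 43.8 ± 7.05 (SD, n = 4 each). The log2 fold change was 0.68 (standard error 0.11, 95% interval 0.42 to 0.93), with an adjusted p of 0.0169 from limma and a p of 0.0286 in the two-sided exact permutation test, the smallest that 4 samples against 4 allow. The call was lost when control library 3, control library 4 or Osr2KI-Cre;Ezh2fl/fl library 4 was left out, with adjusted p-values of 0.0702, 0.0528 and 0.0584, and over all 8 such omissions the log2 fold change stayed between 0.58 and 0.76. In the 5 libraries with the least *Amelx*, it was 0.52 with an adjusted p of 0.247. With the replicate number as a block it was 0.68, and the call was lost as well (adjusted p = 0.0967 from limma).

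In the intervals of the table, *Rarb* does not overlap its neighbour on the opposite strand, the DNA topoisomerase gene *Top2b*, which ends at 16430788. GENCODE mouse release 21 draws *Top2b* longer, and there its exons share 1790 of the 4360 exon bases of *Rarb*. A strand setting for the authors' counting is not given in the sources used here. *Top2b* values were 258.6 to 296.7 in control and 222.5 to 274.7 in Osr2KI-Cre;Ezh2fl/fl libraries (log2 fold change -0.12, adjusted p = 0.678 from limma). Whether *Top2b* transcripts that run past the interval of the table added to the *Rarb* value was not tested.

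The start regions of *Rarb* and *Cyp26a1* are shown because both held a letter pattern known from retinoic acid response elements. Retinoic acid receptors bind pairs of 6-base motifs in the same orientation, and the DR5 pattern has 5 bases between them. The motif AGGTCA, its variant AGTTCA, the variant GGGTCA and the variant GGTTCA were searched in all pairings on both strands of the RefSeq windows on GRCm38, the same build as mm10, from 250 bases before to 50 bases after each gene start. Windows were found for 7 of the 9 genes, and *Aldh1a3* and *Crabp2* had none in the RefSeq table. DR5 was present in 2 of these 7 genes and in 0.115% of all 27025 genes with a window. Both genes were already known as retinoic acid targets, so this comparison is no test of enrichment. The patterns with spacings of 1 base (DR1) and 2 bases (DR2), present in 0.263% and 0.311% of all genes, were found in 0 of the 7. The 100 bases before the start are given on the strand of the gene, with the motifs of the pair in capitals. For *Rarb* they are chr14:16575477-16575576 on the minus strand, with the pattern on the strand of the gene, from 53 to 37 bases before the start. For *Cyp26a1* they are chr19:37697708-37697807 on the plus strand, with the pattern on the opposite strand, from 32 to 16 bases before the start, so that both AGTTCA motifs appear in their complementary form. These are matches of letters, and binding was not measured in the data used here.
Rarb: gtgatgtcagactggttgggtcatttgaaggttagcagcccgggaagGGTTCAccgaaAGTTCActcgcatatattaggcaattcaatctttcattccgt
Cyp26a1: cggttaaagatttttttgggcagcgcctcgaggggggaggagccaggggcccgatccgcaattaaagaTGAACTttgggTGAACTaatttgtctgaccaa

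Among the enzymes that make retinoic acid, *Aldh1a3* had the largest difference between the groups. The gene is on chromosome 7, minus strand (66390890 to 66427518), and no other annotated gene overlaps it. Control libraries 1 to 4 read 31.9, 59.5, 56.1 and 52.2, and Osr2KI-Cre;Ezh2fl/fl libraries 1 to 4 read 71.0, 78.3, 99.98 and 86.5. Each Osr2KI-Cre;Ezh2fl/fl library was above each control library, and control library 1 was the lowest of the 8. The means were 49.9 ± 12.3 and 83.9 ± 12.4 (SD, n = 4 each), and the log2 fold change was 0.77 (standard error 0.19, 95% interval 0.35 to 1.19, adjusted p = 0.0806 from limma). Adding an enamel gene covariate (*Amelx*, *Ambn* and *Enam*, mean log2 level) gave 0.95 with an adjusted p of 0.0194, and leaving out each library in turn gave adjusted p-values from 0.0523 to 0.182.

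*Aldh1a2*, the main retinoic acid synthesising enzyme of the early embryo, had the widest range among the controls of the 9 genes. It is encoded on chromosome 9, plus strand (71215789 to 71296244). It read 3.02, 16.0, 9.71 and 11.9 across control libraries 1 to 4, while Osr2KI-Cre;Ezh2fl/fl libraries 1 to 4 read 10.9, 5.73, 12.9 and 4.09. Both groups held libraries near 3 to 6 and libraries above 10, a 5.29-fold range in control. The log2 fold change was -0.19 with a 95% interval from -1.21 to 0.84 (adjusted p = 0.935 from limma), the widest interval of the 9. Its sign changed without control library 2 (0.08) or Osr2KI-Cre;Ezh2fl/fl library 4 (0.07).

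*Aldh1a1*, the third of these enzymes, is on the plus strand of chromosome 19 (20601961 to 20643463). It was low in both groups, at 3.72, 4.00, 3.10 and 2.87 in control and 4.13, 2.02, 2.85 and 3.11 in Osr2KI-Cre;Ezh2fl/fl libraries 1 to 4. The groups overlapped over most of their range. The log2 fold change was -0.15 (95% interval -0.52 to 0.21, adjusted p = 0.814 from limma). It was -0.02 without Osr2KI-Cre;Ezh2fl/fl library 2 and -0.28 without Osr2KI-Cre;Ezh2fl/fl library 1.

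*Crabp1*, which buffers cytoplasmic retinoic acid and is strongly expressed in neural crest derived mesenchyme, is on the plus strand of chromosome 9 (54764748 to 54773111). It was 79.7, 91.9, 72.2 and 83.2 in control and 105.5, 111.1, 84.0 and 117.8 in Osr2KI-Cre;Ezh2fl/fl libraries 1 to 4. Osr2KI-Cre;Ezh2fl/fl library 3 fell among the controls, and the other 3 were above all of them. The means were 81.8 ± 8.19 and 104.6 ± 14.6 (SD, n = 4 each). The log2 difference was 0.35 (95% interval 0.09 to 0.60), with an adjusted p of 0.204 from limma.

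*Crabp2*, which delivers retinoic acid to its receptors, is on the plus strand of chromosome 3 (87948666 to 87953377). Its values were 21.9, 29.4, 25.4 and 28.2 in control and 34.4, 24.1, 25.8 and 24.3 in Osr2KI-Cre;Ezh2fl/fl libraries 1 to 4. Osr2KI-Cre;Ezh2fl/fl library 1 was the highest of the 8, and the other 3 lay inside the control range. The log2 fold change was 0.04 (95% interval -0.26 to 0.34, adjusted p = 0.953 from limma). Without control library 1 it was -0.04, and without Osr2KI-Cre;Ezh2fl/fl library 1 it was -0.08. Whether *Crabp1* and *Crabp2* responded differently was not tested.

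*Cyp26a1*, which clears retinoic acid by hydroxylation, is on chromosome 19, plus strand (37697808 to 37701529). Its levels were 159.0, 211.8, 270.5 and 271.1 in control and 257.2, 126.3, 240.2 and 165.7 in Osr2KI-Cre;Ezh2fl/fl libraries 1 to 4. Each group held both low and high libraries. The means of 228.1 ± 53.8 and 197.4 ± 61.8 (SD, n = 4 each) gave a log2 fold change of -0.23 (95% interval -0.78 to 0.32, adjusted p = 0.813 from limma). It was -0.04 without Osr2KI-Cre;Ezh2fl/fl library 2 and -0.39 without control library 1. Whether *Cyp26a1* and *Rarb* differed in their change was not tested.

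*Cyp26b1*, the second hydroxylase, is on the minus strand of chromosome 6 (84571414 to 84593909) and was close to the lower limit of the genes tested. Its levels were 0.886, 2.52, 2.22 and 3.01 in control and 2.502, 2.02, 4.92 and 1.90 in Osr2KI-Cre;Ezh2fl/fl libraries 1 to 4. Control library 1 was the lowest and Osr2KI-Cre;Ezh2fl/fl library 3 the highest, with the other 6 between 1.90 and 3.01. The log2 fold change was 0.27 (95% interval -0.36 to 0.90, adjusted p = 0.807 from limma), and it was 0.04 without control library 1 and 0.04 without Osr2KI-Cre;Ezh2fl/fl library 3.

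*Dhrs3*, which limits retinoic acid synthesis by reducing retinaldehyde, is on the plus strand of chromosome 4 (144892827 to 144928210). Its values were 16.9, 24.7, 25.7 and 32.4 in control and 43.2, 26.8, 45.6 and 33.3 in Osr2KI-Cre;Ezh2fl/fl libraries 1 to 4. Osr2KI-Cre;Ezh2fl/fl library 2 was below control library 4, and the other 3 were above all controls. The means were 24.9 ± 6.36 and 37.2 ± 8.73 (SD, n = 4 each), or 1.49 times control. On the log2 scale the difference was 0.56 (95% interval 0.09 to 1.04), with an adjusted p of 0.271 from limma.

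*Cyp26a1* and *Dhrs3* followed the epithelial marker signal from library to library. The summed value of the 8 epithelial markers was 2237, 2830, 3911 and 4768 across control libraries 1 to 4 and 2933, 2030, 2957 and 2211 across Osr2KI-Cre;Ezh2fl/fl libraries 1 to 4. The 4 libraries with the largest sums, control libraries 3 and 4 and Osr2KI-Cre;Ezh2fl/fl libraries 1 and 3, were the 4 with the highest *Cyp26a1*. Within each group the libraries had the same order for *Dhrs3* as for the epithelial sum, whereas *Rarb* was lowest of the controls in library 3, where the sum was second largest, and highest of the Osr2KI-Cre;Ezh2fl/fl libraries in library 3, where the sum was largest. In a bulk sample, a different number of cells of a type and a different amount of RNA per cell cannot be told apart.

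With the mean log2 level of the 8 epithelial markers as a covariate, a setting chosen after the data were seen, the *Dhrs3* difference was 1.00 on the log2 scale (adjusted p = 0.00642 from limma, standard error 0.11). With the enamel gene covariate it was 0.82 (adjusted p = 0.0197). The epithelial covariate turned *Cyp26a1* from -0.23 to 0.28 (adjusted p = 0.301) and *Aldh1a2* from -0.19 to 0.53 (adjusted p = 0.538). Under it *Rarb* was 0.65 with an adjusted p of 0.0705, and *Aldh1a3* was 0.98 with an adjusted p of 0.0641. Of the 8 markers themselves, 0 had an adjusted p under 0.05 and 4 were lower in Osr2KI-Cre;Ezh2fl/fl molars at an unadjusted p under 0.05, where 4.87% of all genes tested were. Which cells the transcripts came from was not tested.

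**Figure D2:**
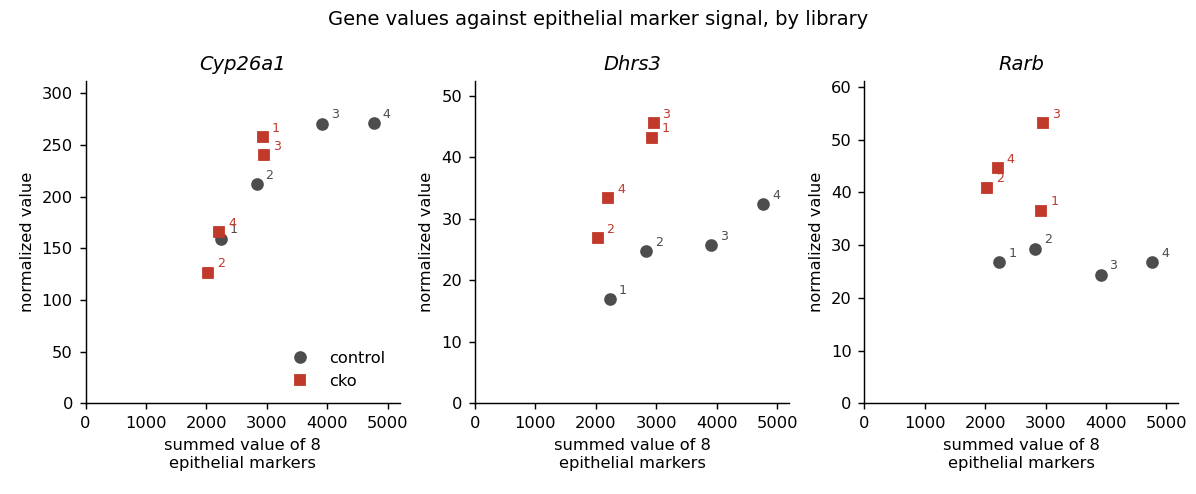
Normalized values of *Cyp26a1*, *Dhrs3* and *Rarb* (vertical axes) against the summed normalized value of 8 epithelial markers (horizontal axes) in each library, with control as grey circles, Osr2KI-Cre;Ezh2fl/fl (cko) as red squares, and library numbers beside the points. *Cyp26a1* is highest in the 4 libraries with the largest epithelial sums, *Dhrs3* follows the sum within each group, and all 4 red *Rarb* points lie above all 4 grey ones.

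Per kilobase of annotated exon, *Cyp26a1* and *Crabp1* stood far above the other 7 genes. The lengths are those of GENCODE mouse release 21 within the interval of the table, which may differ from the authors' annotation. In control, the level per kb was 116.0 ± 27.4 for *Cyp26a1* and 102.0 ± 10.2 for *Crabp1* (SD, n = 4 each), with overlapping libraries. *Crabp2* followed at 19.8 ± 2.52 per kb, apart from *Crabp1* above it and from *Aldh1a3* below it, at 10.8 ± 2.67. *Dhrs3* (8.52 ± 2.17), *Rarb* (6.15 ± 0.459) and *Aldh1a2* (4.49 ± 2.39) came next, each overlapping its neighbour in this order. *Aldh1a1* was at 1.67 ± 0.256 and overlapped *Aldh1a2*, and *Cyp26b1* was lowest at 0.403 ± 0.170, apart from *Aldh1a1*.

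The order in Osr2KI-Cre;Ezh2fl/fl molars differed only at the top, where *Crabp1* (130.4 ± 18.2 per kb) came before *Cyp26a1* (100.4 ± 31.4), with overlapping libraries. *Aldh1a3* (18.2 ± 2.69 per kb) overlapped *Crabp2* (20.5 ± 3.72) there, whereas these genes were apart in control. Among the Aldh1a genes *Aldh1a3* had the highest mean per length in both groups, and among the Cyp26 genes of the set *Cyp26a1* had.

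**Figure D3:**
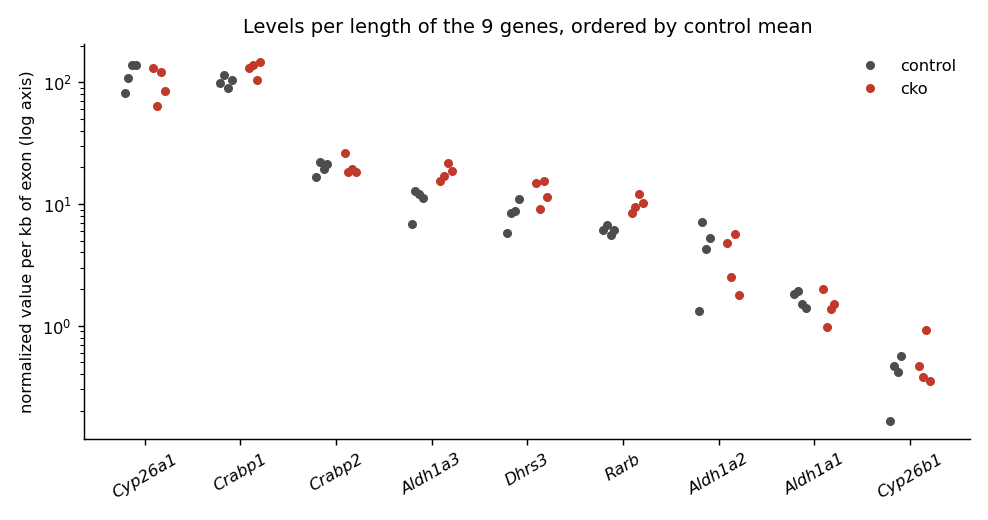
Normalized value per kb of annotated exon (vertical axis, log scale) of the 9 genes in each library, ordered by the control mean, with control in grey and Osr2KI-Cre;Ezh2fl/fl (cko) in red. *Cyp26a1* and *Crabp1* lie near 100 per kb and *Cyp26b1* lies below 1.

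The remaining pathway was read from a list of 50 genes for retinol supply, nuclear receptors, further breakdown, transcriptional cofactors and target genes, of which 41 were in the table and 31 were tested. By limma, 0 were called higher and 0 lower after adjustment (lowest adjusted p = 0.127), and at an unadjusted p under 0.05, 3 were higher and 3 were lower, where 8.27% and 4.87% of all genes tested were. Their median log2 fold change was -0.02. Under the other settings tried, array weights called 12 of them and each other setting called 0.

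In retinol supply, 0 of 8 genes tested passed adjustment, and 2 were higher at an unadjusted p under 0.05, where 8.27% of all genes were. *Stra6*, the membrane receptor that takes up retinol, was 3.41, 3.10, 3.58 and 3.07 in control and 4.55, 4.20, 4.12 and 5.65 in Osr2KI-Cre;Ezh2fl/fl libraries 1 to 4. The groups did not overlap, and the 95% interval of the log2 fold change was 0.14 to 0.63, with an adjusted p of 0.127 from limma. *Rdh10*, the main retinol dehydrogenase of the embryo, had means of 204.7 ± 36.9 in control and 256.4 ± 34.2 in Osr2KI-Cre;Ezh2fl/fl molars (SD, n = 4 each) with overlapping groups (adjusted p = 0.361).

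Among the nuclear receptors and *Fabp5*, 1 of 7 was higher and 1 lower at an unadjusted p under 0.05, where 8.27% and 4.87% of all genes were. *Rarg*, the receptor gene paralogous to *Rarb*, had means of 141.0 ± 13.9 and 168.6 ± 21.1 (SD, n = 4 each, adjusted p = 0.332), and *Rara* had a 95% interval of the log2 fold change from -0.27 to 0.22. *Fabp5*, which carries retinoic acid to a different receptor, had means of 134.9 ± 38.6 and 89.6 ± 17.8 (SD, n = 4 each, adjusted p = 0.290).

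*Cyp26c1*, the third Cyp26 hydroxylase gene and not one of the 9, was 10.3, 14.7, 16.0 and 8.58 in control and 7.79, 4.69, 3.75 and 8.70 in Osr2KI-Cre;Ezh2fl/fl libraries 1 to 4. Control library 4 was below Osr2KI-Cre;Ezh2fl/fl library 4, and the 95% interval was -1.497 to -0.32 on the log2 scale (adjusted p = 0.136 from limma). Of the 9 cofactors tested, 0 passed an unadjusted p of 0.05, which 8.27% of all genes passed with a higher and 4.87% with a lower level. Among these cofactors, *Ncor1*, a corepressor of unliganded receptors, had means of 223.5 ± 11.3 and 203.7 ± 29.8 (SD, n = 4 each). Of the 5 target genes tested, 1 was lower at the same threshold, *Meis1* (3.50 ± 0.579 and 2.57 ± 0.498, SD, n = 4 each, adjusted p = 0.328), and 7 of the 12 listed were in the table.

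**Figure D4:**
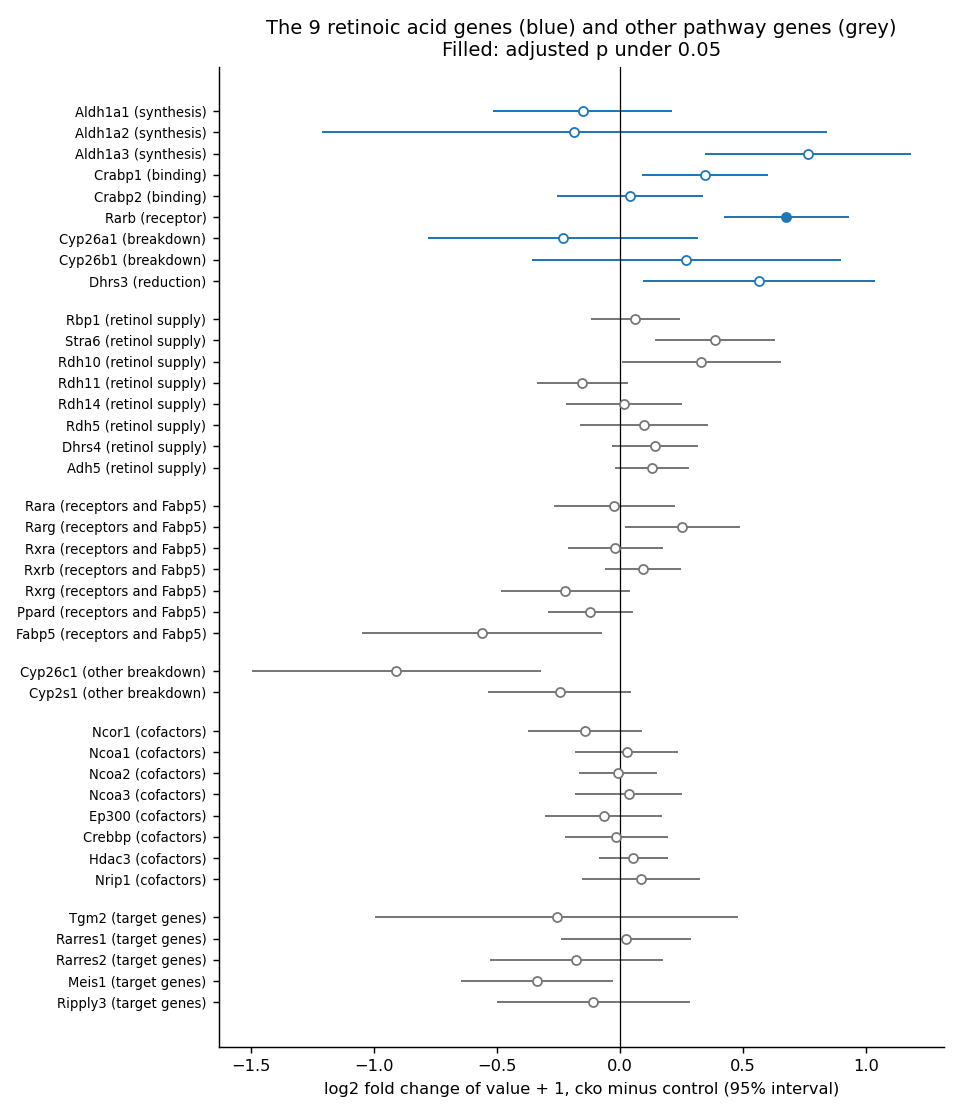
Log2 fold change of value + 1, Osr2KI-Cre;Ezh2fl/fl (cko) minus control, with 95% intervals, for the 9 genes (blue, with their roles) and other pathway genes tested (grey, with their list). Filled points have an adjusted p under 0.05, which holds for *Rarb* alone.

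The genes whose pattern over the 8 libraries was most like that of *Rarb* were *Foxc1*, a forkhead transcription factor gene, and *Gad1*, a glutamate decarboxylase gene. The measure was the root mean square difference of log2(value + 1) after centring each gene on its mean, which was 0.1003 for *Foxc1* and 0.105 for *Gad1*. *Foxc1* was 4.19, 4.57, 3.89 and 4.40 in control and 6.54, 5.99, 7.82 and 7.02 in Osr2KI-Cre;Ezh2fl/fl libraries 1 to 4, so that in both genes library 3 was the lowest control and the highest Osr2KI-Cre;Ezh2fl/fl library. For *Aldh1a3* the nearest genes were *Adam12*, a metalloprotease gene, at 0.174 and *Pou3f3*, a POU domain factor gene, at 0.175. *Adam12* was lowest in control library 1 (20.5) and highest in Osr2KI-Cre;Ezh2fl/fl library 3 (45.9), as *Aldh1a3* was.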

How the data were processed

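Group and replicate number of the 8 libraries came from the sample titles, and table columns were matched to these titles. The paper's methods describe trimming, TopHat alignment to mm10 and RPKM, whereas the submitters' processing notes name STAR 2.5.3a, CASAVA 1.8.2 and Partek. The deposited values are a signal that the authors scaled to similar 75th percentiles (38.455 to 38.463). They carry no gene length and are not whole reads (58.9% to 64.4% of values under 20 times the smallest lay within 0.02 of a multiple of it), so no count test was run. Reads were estimated by dividing by the smallest value of a library and subtracting 1, which gave 48.3 to 68.8 M reads.

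Log2(value + 1) was fitted with limma 3.58.1 (mean-variance trend) in R 4.3.3, and the fit was tested on simulated data. Single genes were also compared over the 70 arrangements of the libraries (two-sided exact permutation test). Alternatives covered the pseudocount, filter, scaling, moderation, array weights, covariates, a replicate block and leaving out each library. Annotation was GENCODE mouse release 21, with promoters from RefSeq on GRCm38. The 9 genes and all lists were chosen with earlier results of these data known. The other genes named are pathway genes with an unadjusted p under 0.05 or among the 3 highest levels, *Ezh2*, marker lists, and the 2 genes nearest to each of the 2 genes with the largest fold changes. A further pathway gene that this rule names is neither reported nor drawn here. *Rara*, *Top2b*, *Tgm2* and single markers were named after their values were seen.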

Additional observations from a re-analysis of the deposited data

Results flagged for a closer look

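*Ezh2* was 54.95 in control library 1, far from the other 3 control libraries at 38.3 to 39.6. It was the 1 case in 44 groups of 4 examined among the genes named, where chance gives about 2.2.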

How the results depend on the processing

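The number of the 9 genes called was 1, as without alternatives, in most settings. With the epithelium covariate the 1 gene was *Dhrs3* instead of *Rarb*. The number was 6 with array weights, where Osr2KI-Cre;Ezh2fl/fl library 4 counted 9.66 and each other library at most 2.31, 3 with the *Amelx*, *Ambn* and *Enam* covariate, 0 to 1 with each library left out in turn, and 0 in the 5 libraries lowest in *Amelx*. With the replicate number as a block it was 0, also without the filter (*Rarb* adjusted p = 0.0967 and 0.106 from limma), and the call of *Rarb* was the only one of the 9 that the block changed. Deviations of same-numbered libraries had correlations of -0.34, -0.08, 0.22 and -0.43 across genes. The paper's methods describe sequencing for 3 pairs of samples. Whether same-numbered libraries shared a litter, dissection or run was not tested. These correlations cannot decide it, since the epithelial and enamel signal of the libraries also varied.

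Of all genes, 308 were called. There were 119 with a filter at a value of 10, 4040 with array weights, 73 with the block, 62 with the block and no filter, 187 with the epithelium covariate, 8 in the 5 libraries lowest in *Amelx*, and 129 to 429 with each library left out. Of the 31 further pathway genes 0 were called, also with each library left out (0 to 0), and 12 with array weights.

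*Rarb* was called in 17 of 24 alternatives and higher in all 24, with log2 fold changes from 0.52 to 0.76. *Aldh1a3*, *Crabp1* and *Dhrs3* were higher in all 24 and called in 2, 1 and 3. *Aldh1a1* was lower in all 23 it was tested in, since the filter at 10 removed it and *Cyp26b1*. Array weights called *Aldh1a3*, *Crabp1*, *Rarb* and *Dhrs3* higher and *Aldh1a2* (-1.10, adjusted p = 0.0238 from limma) and *Cyp26a1* (-0.49, adjusted p = 0.0285) lower, and reversed *Crabp2* (-0.12) and *Cyp26b1* (-0.12). The *Amelx*, *Ambn* and *Enam* covariate reversed *Aldh1a2* (0.28) and *Cyp26a1* (0.045), and the epithelium covariate did so too (0.53 and 0.28). With each library left out, *Aldh1a2* ranged from -0.62 to 0.076 and *Crabp2* from -0.075 to 0.097, the cause of which was not tested. The epithelium covariate and the 5 libraries were chosen after the data were seen.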

Other observations

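*Tgm2*, a transglutaminase gene inducible by retinoic acid, was 7.11, 22.7, 12.8 and 13.8 in control and 15.8, 7.58, 14.0 and 7.87 in Osr2KI-Cre;Ezh2fl/fl libraries 1 to 4. Control library 1 and Osr2KI-Cre;Ezh2fl/fl libraries 2 and 4 were the 3 lowest of the 8 for both *Tgm2* and *Aldh1a2*, and control library 2 was the highest for both. The same 3 libraries were also the lowest of the 8 in the epithelial marker sum, in *Amelx* and in *Cyp26a1*. *Tgm2* was looked at in this way after its values were seen.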
